A study of Mus musculus with 8 samples.

Results

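Styk1 and Wscd2 are 2 of the 31276 genes in a deposited RNA-seq table of C3H10T1/2 cells, a multipotent mesenchymal line from mouse embryo. They were chosen by symbol because their rows part the libraries by a wide gap: Styk1 is high and Wscd2 low wherever the transgene is K36M or K36I, and the reverse elsewhere. The values below therefore describe that choice, and neither gene is tested.

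Every line stably carried a FLAG-HA-tagged histone H3 transgene beside its own histone genes and was taken at passage 10 to 15. There were 8 lines with 1 library each: the lines with H3.3 K36M, with H3.3 K36I and with H3.1 K36M on one side, and H3.3 K36A, H3.3 K36L, H3.3 K36R, H3.1 K36R and H3.3 WT on the other. The letters name the residue that replaces lysine 36 of the histone, and WT is the unmutated H3.3. No WT H3.1 line and no line without a transgene were analysed here, and the labels do not say whether a line is 1 clone or a pool. Lysine 36 of H3 carries methyl marks, and K36M and K36I are described in the literature as inhibitors of the enzymes that place them. The labels name no second culture of any line, so spread within a side is spread between lines with different transgenes, part of which may be technical.

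Styk1, also called NOK, encodes a membrane-spanning protein whose kinase domain resembles that of receptor tyrosine kinases but which lacks the large ligand-binding portion they carry. Overexpression work in cultured cells has linked it to the ERK and PI3K-AKT pathways, and in human cells to the class III PI3K complex that starts autophagosomes. Wscd2 encodes a membrane protein with a WSC domain and a sulfotransferase-like domain, and with its paralogue Wscd1 it is described as a Golgi enzyme that adds sulfate to sialic acid. Sulfotransferases take their sulfate from PAPS, which is made in the cytosol by Papss1 and Papss2 and carried into the Golgi by Slc35b2 and Slc35b3.

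Styk1 lies on chromosome 6 (131299142 to 131353597, minus strand) and Wscd2 on chromosome 5 (113490333 to 113589725, plus strand), by GENCODE M21 (GRCm38, to which mm10 corresponds). Both are protein coding, spanning 54.5 and 99.4 kb. No exon of either overlaps an exon of another annotated gene, and no other annotated gene lies within their spans.

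Library depth, recovered from the table as whole reads, ran from 45448249 reads in H3.1 K36M to 68020958 in H3.3 K36I. All 9 mesenchymal and fibroblast markers passed the filter on low values, and their summed level was 576064 to 802781 normalised reads in the K36M and K36I lines and 855108 to 1137019 in the others. The sum is weighted to the most abundant genes, and the markers did not move together. Col1a2 and Fn1 were lower without overlap, and Twist1 was higher without overlap (1192 to 1446 against 865 to 1065). Col1a1, Col3a1, Vim, Thy1, Pdgfrb and Prrx1 overlapped between the sides. Of 7 leukocyte markers 0 passed it, with sums of 15.3 to 36.8 normalised reads in lines of K36M or K36I and 2.19 to 35.3 in the others, and Cd3e and Ncr1 had 0 reads everywhere. Epithelial markers, of which 2 of 6 passed the filter, summed to 719 to 1762 in lines of K36M or K36I and 563 to 7846 in the others. Most of this was Cdh1 (687 to 1065 against 292 to 787) and Krt14 (18.4 to 613 against 31.7 to 7403). Epcam, Krt18 and Cldn4 had at most 6 reads in any library. Neuronal markers, of which 2 of 5 passed the filter, summed to 1734 to 3002 in lines of K36M or K36I and 928 to 9281 in the others. Nearly all of this was Tubb3 and Stmn2, while Snap25, Syt1 and Rbfox3 had at most 6 reads in any library. The part of these markers in the results was not tested.

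Styk1 had 3015 normalised reads in H3.3 K36M, 2944 in H3.3 K36I and 3500 in H3.1 K36M. In the other lines it had 172 in H3.3 K36A, 113 in H3.3 K36L, 131 in H3.3 K36R, 125 in H3.1 K36R and 91.1 in H3.3 WT. A normalised read is a read divided by the library's size factor. All of the K36M and K36I libraries were high, all the others low, and no library lay between. The mean was 3153 ± 303 normalised reads in the K36M and K36I lines (SD, n = 3) and 126 ± 29.9 in the others (SD, n = 5), a ratio of 24.9. On the deposited log2 scale the means were 11.67 ± 0.13 and 7.86 ± 0.19, a difference of 3.82. Because these are bulk samples, more cells with Styk1 and more Styk1 RNA per cell cannot be told apart, and the same holds for every gene below.

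The low values of Styk1 rest on few reads. H3.3 WT had 98 reads, with an exact 95% Poisson interval of 79.6 to 119, and H3.3 K36A had 180 reads (155 to 208). These intervals cover counting error only. In order of level, H3.1 K36M stood above H3.3 K36M beyond counting error, whereas the intervals of H3.3 K36M and H3.3 K36I overlapped. From H3.3 K36A down through H3.3 K36R, H3.1 K36R and H3.3 K36L to H3.3 WT, each interval overlapped that of the next line. The highest library was 1.19 times the lowest within the K36M and K36I lines and 1.89 times within the others.

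Wscd2 ran the other way. It had 38.2 normalised reads in H3.3 K36M, 67.2 in H3.3 K36I and 18.4 in H3.1 K36M, against 4908 in H3.3 K36A, 4483 in H3.3 K36L, 4705 in H3.3 K36R, 2400 in H3.1 K36R and 4455 in H3.3 WT. The sides did not overlap, and H3.1 K36R held the lowest value among the lines that kept the gene high. Means were 41.3 ± 24.5 normalised reads in the K36M and K36I lines (SD, n = 3) and 4190 ± 1017 in the others (SD, n = 5), which is 102-fold lower. On the log2 scale they were 7.06 ± 0.33 and 12.03 ± 0.41, a difference of -4.97.

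In H3.1 K36M only 14 reads of Wscd2 were counted (exact 95% Poisson interval 7.65 to 23.5), so this fold is loosely bounded there. H3.3 K36M had 40 reads (28.6 to 54.5) and H3.3 K36I 79 (62.5 to 98.5). Residual Wscd2 in H3.3 K36I stood above that in H3.3 K36M beyond counting error, while H3.3 K36M and H3.1 K36M overlapped. Among the high lines, H3.3 K36A, H3.3 K36R, H3.3 K36L and H3.3 WT followed each other with overlapping intervals, and H3.1 K36R lay below all of them. The spread within the K36M and K36I lines was 3.65-fold, wider than for Styk1, and 2.05-fold within the others.

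**Figure D1:**
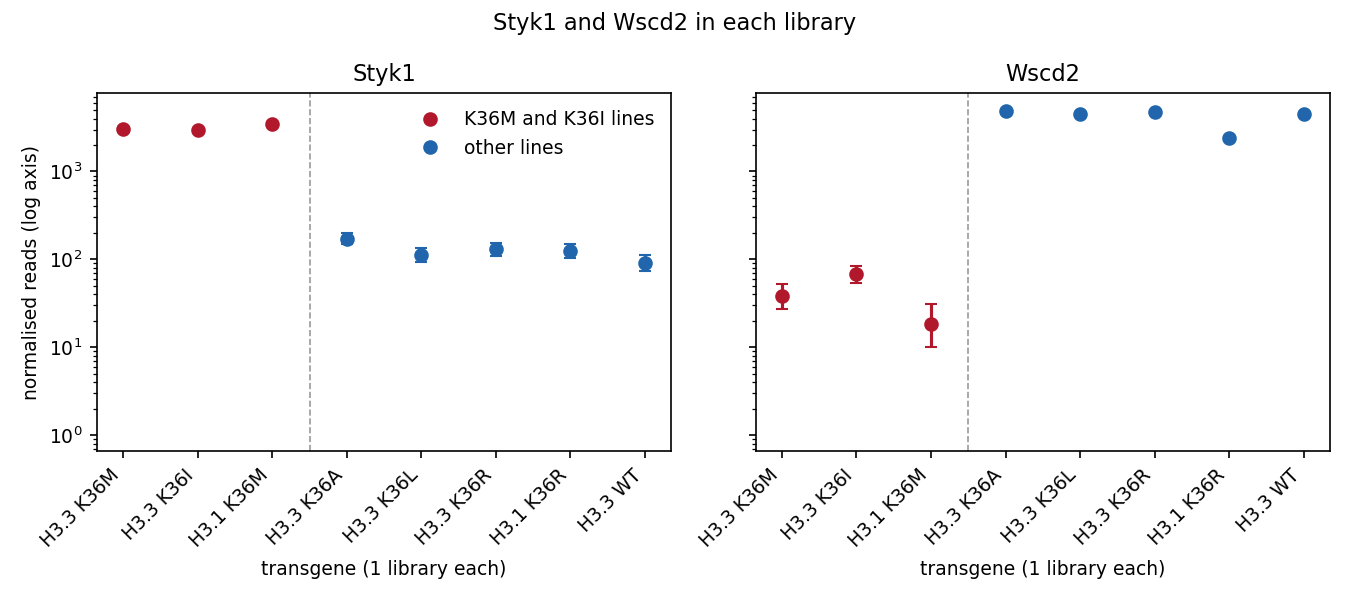
Normalised reads of Styk1 (left panel) and Wscd2 (right panel) on a log axis in each of the 8 libraries, with exact 95% Poisson intervals that cover counting error only. The 3 K36M and K36I libraries (red) sit between 2944 and 3500 for Styk1 and between 18.4 and 67.2 for Wscd2, and the other 5 (blue) between 91.1 and 172 and between 2400 and 4908.

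The gap between the sides, from the lowest library of the higher side to the highest of the lower, was 3.91 for Wscd2 and 3.44 for Styk1 on the log2 scale. Among the 14215 genes past the filter (mean at least 1 above the lowest value of the table) these gaps ranked 1 and 2, and 11 genes had a gap over 3. The genes were chosen for this, so the ranks are a description. The sides did not overlap in 21.5% of all tested genes. Spread alone does not set the pair apart: the pooled SD within the sides was 0.18 for Styk1 and 0.39 for Wscd2, against a median of 0.17 over all tested genes. Of all tested genes 53.7% had a smaller pooled SD than Styk1 and 88.2% a smaller one than Wscd2.

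The step between K36M and K36R was present in both histones, while Wscd2 was lower in H3.1 than in H3.3 for either substitution. On the log2 scale, H3.3 K36M minus H3.3 K36R was 3.72 for Styk1, and H3.1 K36M minus H3.1 K36R was 3.97. For Wscd2 these differences were -5.18 and -4.57. Between histones, H3.1 K36M minus H3.3 K36M was 0.21 for Styk1 and -0.33 for Wscd2, and H3.1 K36R minus H3.3 K36R was -0.04 and -0.94. In normalised reads, Wscd2 was 2.07-fold lower in H3.1 K36M than in H3.3 K36M, with overlapping counting intervals, and 1.96-fold lower in H3.1 K36R than in H3.3 K36R, with intervals that did not overlap. Each of these sets 1 library against 1, so none has a replicate check. With H3.3 libraries alone, the difference between the sides was 3.74 for Styk1 and -4.99 for Wscd2.

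Outside K36M and K36I, the mutants farthest from H3.3 WT in normalised reads were H3.3 K36A for Styk1, at 1.89 times H3.3 WT, and H3.1 K36R for Wscd2, 1.86-fold below it, both beyond counting error. On the log2 scale, which compresses low levels, Styk1 differed from H3.3 WT by 0.53 in H3.3 K36A, 0.17 in H3.3 K36L, 0.29 in H3.3 K36R and 0.25 in H3.1 K36R. H3.3 WT was the lowest of the 5 for Styk1, with an interval that overlapped that of H3.3 K36L. Wscd2 differed from H3.3 WT by 0.14, 0.01 and 0.08 in H3.3 K36A, K36L and K36R, and by -0.86 in H3.1 K36R. The opposition of the genes did not carry over into this side, since H3.3 K36A was the highest of the 5 lines for both. Across all 8 libraries Pearson's r between the genes was -0.99, and Spearman's rank correlation, which ignores the size of the step, was -0.60.

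Set per length of exon, the genes changed places. Styk1 stood at 847, 827 and 983 normalised reads per kb in H3.3 K36M, in H3.3 K36I and in H3.1 K36M, where Wscd2 stood at 8.87, 15.6 and 4.28. In the other lines Styk1 ranged from 25.6 per kb in H3.3 WT to 48.4 in H3.3 K36A, and Wscd2 from 558 in H3.1 K36R to 1141 in H3.3 K36A. Styk1 was 52.9 to 230 times Wscd2 in the K36M and K36I lines, and Wscd2 was 15.9 to 40.5 times Styk1 in the others. Among 12370 tested genes with a length, the level of Styk1 per kb lay at percentiles 63.7 to 67.8 in the K36M and K36I lines and 7.53 to 13.1 in the others. That of Wscd2 lay at percentiles 0.841 to 4.23 in the K36M and K36I lines and 51.9 to 72.3 in the others.

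Among the tested members of their families the shift was a change of rank. Members below the filter were not ranked, which left 35 of 57 listed kinases and 18 of 36 listed sulfotransferases beside the chosen genes. The filter used the mean over all 8 libraries, so these are not ranks in the whole family. Styk1 ranked 9 to 10 by reads per kb among 36 tested receptor tyrosine kinases (itself included) in the K36M and K36I lines, and 29 to 32 in the others. Wscd2 ranked 18 to 19 of 19 tested Golgi sulfotransferases (itself included) in the K36M and K36I lines. In the others it ranked 2 in H3.3 K36A, 3 in H3.3 K36L, H3.3 K36R and H3.3 WT, and 7 in H3.1 K36R. The paralogue Wscd1 had 0 reads in every library, which at these depths allows a share of up to 4.41e-06% to 6.60e-06% of reads.

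**Figure D2:**
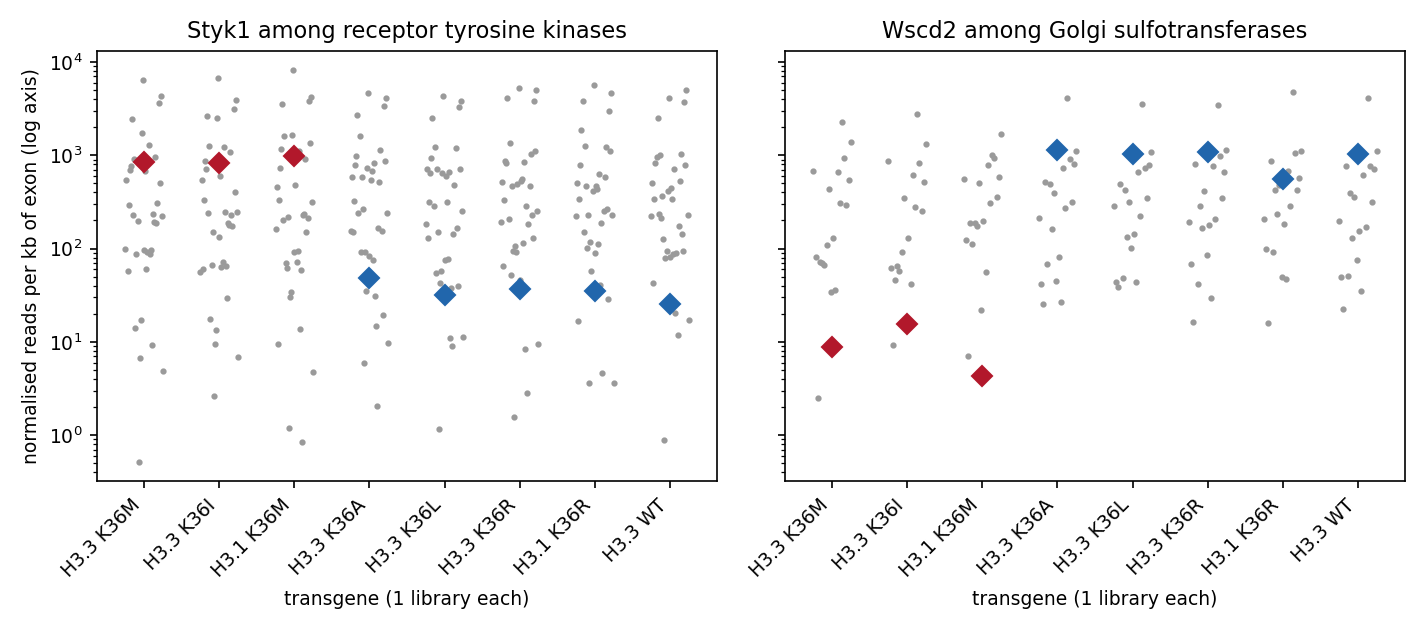
Normalised reads per kb of exon on a log axis in each library, for receptor tyrosine kinases with Styk1 (left) and Golgi sulfotransferases with Wscd2 (right). Diamonds mark Styk1 and Wscd2, red in K36M and K36I lines and blue in the others, and grey points are the other tested family members. Styk1 ranks 9 to 10 of 36 in the red libraries and 29 to 32 in the blue, and Wscd2 ranks 18 to 19 of 19 in the red and 2 to 7 in the blue.

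Genes other than the chosen pair were tested with limma, K36M and K36I lines against the other 5, with Benjamini-Hochberg adjustment over all 14215 genes. At adjusted p under 0.05, 13.3% of genes were called, with 6.45% higher and 6.82% lower in lines of K36M or K36I, and the median difference over all genes was -0.01. With library medians set equal, 1156 genes were higher and 805 lower, in place of 917 and 970. The calls below are read against these shares.

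Both genes next to Styk1 were higher in the K36M and K36I lines. Magohb, whose start lies 60.4 kb from that of Styk1 and which encodes a core subunit of the exon junction complex, had 1106, 1270 and 1256 normalised reads in H3.3 K36M, in H3.3 K36I and in H3.1 K36M. In the other lines it ran from 478 in H3.3 K36R to 629 in H3.3 K36L, with no overlap. It rose by 0.99 (SE 0.10, limma adjusted p = 8.83e-04). A close copy, Magoh, lies elsewhere in the genome, so how the reads were divided between them is uncertain. Exons of Magohb also overlap those of Gm44958 on the same strand.

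Ybx3, a Y-box protein that binds DNA and RNA, starts 34.9 kb on the other side of Styk1. Its level was 10899 to 12130 normalised reads in the K36M and K36I lines and 6443 to 8483 in the others, again with no overlap, a rise of 0.59 (SE 0.10, limma adjusted p = 0.00596). Magohb and Ybx3 kept their calls when any 1 library was left out. The third tested neighbour, Klra2, belongs to the Ly49 receptor family of natural killer cells. It had 47.7, 51.0 and 463 normalised reads in H3.3 K36M, in H3.3 K36I and in H3.1 K36M, against 2.92 to 17.5 in the others, and did not pass (difference 1.42, SE 0.42, limma adjusted p = 0.0575). This side of the threshold depended on the processing. It passed without H3.1 K36M (0.76, limma adjusted p = 0.0109) and with H3.3 libraries alone (0.83, limma adjusted p = 0.00435). Both fits kept the genes that passed the filter over all libraries, H3.1 K36M included, where Klra2 was highest. These passes are therefore not independent of H3.1 K36M. Klra2 also passed with histone as a covariate (limma adjusted p = 0.0151), with library medians set equal (0.0497), with log2 of normalised reads plus 1 (0.0183) and with log2 of CPM plus 0.5 (0.0482). The range of its adjusted p over the libraries left out in turn was 0.0109 to 0.115. Ly49 genes resemble each other closely, so its reads are uncertain too. Of the 10 protein-coding neighbours examined, 5 to a side, 2 were higher and 1 was not called. Another 6 fell below the filter, among them Klra1, Klra3, Klra10, Tas2r130 and Tas2r107 with 0 reads, and Gm6619 was not analysed here. Over all tested genes 6.45% were called higher, and the sides did not overlap in 21.5%. Whether the neighbours differ from these shares was not tested.

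Around Wscd2 the nearer neighbours were mixed. On one side Cmklr1, a receptor for chemerin that starts 160 kb away, fell by 0.92 (SE 0.22, limma adjusted p = 0.0288). Its levels were 1656 to 2229 normalised reads in the K36M and K36I lines and 2927 to 6110 in the others. Without H3.3 K36M, H3.3 K36I, H3.1 K36M or H3.3 WT the call was lost, with limma adjusted p between 0.00965 and 0.0853 over all libraries left out in turn. Beyond it, Ficd, which modifies the chaperone BiP (-0.18, SE 0.13), Sart3, a splicing factor (-0.06, SE 0.12), and Iscu, an iron-sulfur cluster scaffold (0.06, SE 0.11), did not pass.

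On the other side of Wscd2, Sgsm1 did not pass (0.15, SE 0.43), and its levels overlapped. The gene listed as 2900026A02Rik, 269 kb away, fell by 1.58 (SE 0.26, limma adjusted p = 0.00629), with 47.7, 158 and 61.8 normalised reads in H3.3 K36M, in H3.3 K36I and in H3.1 K36M against 260 to 654 in the others. In all, 2 of the 6 tested neighbours of Wscd2 were lower and 0 higher, and 4 of the 10 fell below the filter. Over all tested genes 6.82% were called lower and 6.45% higher, and a departure from these shares was not tested. Neither side of Wscd2 held a difference near its own -4.97, but Wscd2 was chosen for its wide gap, so this is a description.

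**Figure D3:**
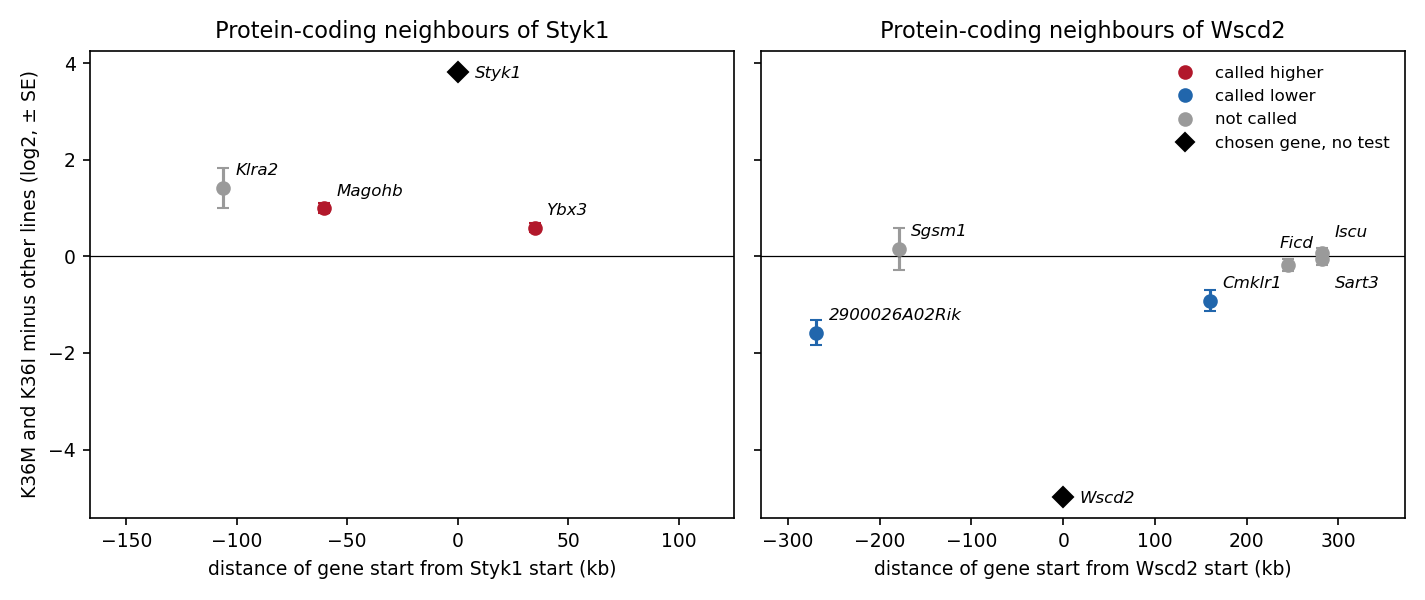
Difference of K36M and K36I lines from the other lines (log2, ± SE of the limma fit) for the tested protein-coding neighbours of Styk1 (left) and Wscd2 (right), by distance in kb between gene starts. Magohb and Ybx3 are called higher beside Styk1, and Cmklr1 and 2900026A02Rik lower beside Wscd2. Black diamonds show the chosen genes at 3.82 and -4.97, without a test.

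The other receptor tyrosine kinases moved both ways. Of 57 listed, 35 were tested, of which 4 were higher, 5 lower and 26 not called, with a median difference of -0.08. Called genes made up 25.7% of the tested kinases, against 13.3% over all tested genes. Met, the receptor of hepatocyte growth factor, rose by 1.84 (SE 0.22, limma adjusted p = 0.00140), with 13318 ± 3146 normalised reads in the K36M and K36I lines (SD, n = 3) and 3661 ± 967 in the others (SD, n = 5). Tek, the angiopoietin receptor, fell by 2.41 (SE 0.23, limma adjusted p = 6.23e-04), to 307 ± 26.7 normalised reads in the K36M and K36I lines, against 2203 ± 730 in the others. None of the named kinases reached the difference seen in Styk1, which was itself chosen for its wide gap.

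Fgfr3, a fibroblast growth factor receptor, was called lower (-2.07, SE 0.51, limma adjusted p = 0.0299), but H3.1 K36R, at 443 normalised reads, lay close to the 271 to 387 of the K36M and K36I lines. Its call was lost without any 1 library other than H3.1 K36R (adjusted p of 7.42e-04 to 0.0888). Ret, the receptor of the GDNF family, was called higher (1.82, SE 0.46, limma adjusted p = 0.0335) and lost its call without any 1 library other than H3.3 K36R and H3.3 WT (0.0162 to 0.128). Without H3.3 K36I or without H3.3 K36L, 5 members of the list were called.

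Genes that report on ERK signalling went in one direction where they were called. Of 16 tested, 5 were higher, 0 lower and 11 not called, with a median difference of 0.35. The called share was 31.25%, against 13.3% over all tested genes. This did not set the list apart. The share was 25.7% for receptor tyrosine kinases, 28.6% for PI3K and AKT genes, 38.9% for Golgi sulfotransferases and 35.7% for the donor supply list. Uncalled differences ran from -0.33 for Spry4 to 1.11 for Spry1, with Egr1 at 0.04 and Dusp6 at 0.25. Whether ERK signalling itself differed was not tested. Dusp4, a phosphatase that acts on ERK, rose by 2.70 (SE 0.35, limma adjusted p = 0.00200). It had 9822, 11073 and 9475 normalised reads in H3.3 K36M, in H3.3 K36I and in H3.1 K36M, and 789 in H3.3 WT to 3065 in H3.3 K36R among the others. Etv4, an ETS factor, rose by 1.32 (SE 0.22, limma adjusted p = 0.00609), and the AP-1 subunit gene Fosl1 by 1.21 (SE 0.18, limma adjusted p = 0.00431). Dusp5 was called at 0.63 (SE 0.16, limma adjusted p = 0.0308), a call lost without any 1 library other than H3.3 K36A and H3.1 K36R (0.0172 to 0.109). In this list 3 genes were called without any 1 of H3.3 K36M, K36I, K36L, K36R and WT, and 8 with histone as a covariate. Exons of Fosl1 and Dusp5 overlap a gene that runs the other way, and since the use of strand in counting is unknown, reads of such pairs cannot be told apart. The same applies to Fgfr3, Rubcn and Pkd1, and to Bmpr1a, Chn2, Gas2, Plekha2, Pstpip2 and Syt12, which are named further below.

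Of 14 tested PI3K and AKT genes 2 were higher and 2 lower, with a median of -0.04. That is a called share of 28.6%, against 13.3% over all tested genes. The regulatory subunit gene Pik3r3 fell by 1.30 (SE 0.16, limma adjusted p = 0.00178). Pdpk1, whose product phosphorylates AKT, rose by 0.43 (SE 0.07, limma adjusted p = 0.00550). The catalytic subunit gene Pik3cd was called higher by 0.71 (SE 0.15, limma adjusted p = 0.0159). Pik3cd lost its call without H3.3 K36M (0.0134 to 0.0659), where 2 of the list were called. In the class III PI3K list 1 of 8 was lower, Rubcn, a negative regulator of the complex listed under its older symbol 1700021K19Rik (-0.33, SE 0.06, limma adjusted p = 0.0101), and 0 were higher. The called share of that list, 12.5%, was near the 13.3% over all tested genes.

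Golgi sulfotransferases, the enzyme class of Wscd2, split into 5 lower and 2 higher of 18 tested, with a median of 0.01. That is a called share of 38.9%, against 13.3% over all tested genes. The chondroitin 6-O-sulfotransferase gene Chst7 fell by 2.38 (SE 0.31, limma adjusted p = 0.00220), with 157, 102 and 415 normalised reads in H3.3 K36M, in H3.3 K36I and in H3.1 K36M against 1092 to 1932 in the others. Chst11, a chondroitin 4-O-sulfotransferase, fell by 1.91 (SE 0.31, limma adjusted p = 0.00590). Chst1, a keratan sulfate sulfotransferase, rose by 1.49 (SE 0.16, limma adjusted p = 9.09e-04). The heparan sulfate enzyme gene Hs6st2 was called lower (-1.08, SE 0.29, limma adjusted p = 0.0411), which was lost without any 1 library other than H3.3 K36I and H3.1 K36M (0.0218 to 0.0908). It had 10217, 12481 and 4512 normalised reads in H3.3 K36M, in H3.3 K36I and in H3.1 K36M, against 15362 to 21485 in the others. Without H3.1 K36M, the lowest of these, the difference was -0.65, and with H3.3 libraries alone it was -0.58. Without H3.3 K36M 4 and without H3.3 WT 3 of the list were called.

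Of the genes that make and carry the sulfate donor, Papss2, Papss1 and Slc35b2 fell, and Slc35b3 did not pass (0.12, SE 0.09, limma adjusted p = 0.424). Slc35b3, named after its values were seen, had 1452 ± 76.1 normalised reads in the K36M and K36I lines (SD, n = 3) and 1327 ± 124 in the others (SD, n = 5). Papss2 fell by 1.97 (SE 0.29, limma adjusted p = 0.00354), with 1688 ± 154 normalised reads in the K36M and K36I lines (SD, n = 3) and 7436 ± 3377 in the others (SD, n = 5). Papss1 fell by 0.85 (SE 0.09, limma adjusted p = 9.45e-04), to 4252 ± 361 normalised reads in the K36M and K36I lines, against 7748 ± 687 in the others. Slc35b2 fell by 0.69 (SE 0.09, limma adjusted p = 0.00169), to 3072 ± 302 in the K36M and K36I lines, against 5024 ± 320 in the others. The calls of Papss2, Papss1 and Slc35b2 held when any 1 library was left out. The sialidase gene Neu1 was called higher (0.72, SE 0.19, limma adjusted p = 0.0381) and lost its call without any 1 library other than H3.1 K36M and H3.3 K36R (0.0209 to 0.113). Of the 14 tested genes of sialic acid and sulfate donor supply and sialidases, 4 were lower and 1 higher, with a median of -0.20. Called genes made up 35.7% of this list, against 13.3% over all tested genes. Here 3 were called without any 1 of H3.3 K36M, K36I, K36L, WT and H3.1 K36R.

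Among 10 tested sialyltransferases, which add the sialic acid that Wscd2 is described as sulfating, only St3gal1 was called, at -1.19 (SE 0.27, limma adjusted p = 0.0221). That call was lost without H3.3 K36M, K36I, K36R or WT (0.0109 to 0.0845), leaving 0 of the list, and with library medians set equal or histone as a covariate 2 were called. The median of the list was 0.14, and its called share, 10%, was below the 13.3% over all tested genes. Of the other genes with a WSC domain, Kremen1 (-0.14, SE 0.11, limma adjusted p = 0.444) and Pkd1 (-0.09, SE 0.15, limma adjusted p = 0.748) did not pass, and Wscd1 and Kremen2 fell below the filter.

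**Figure D4:**
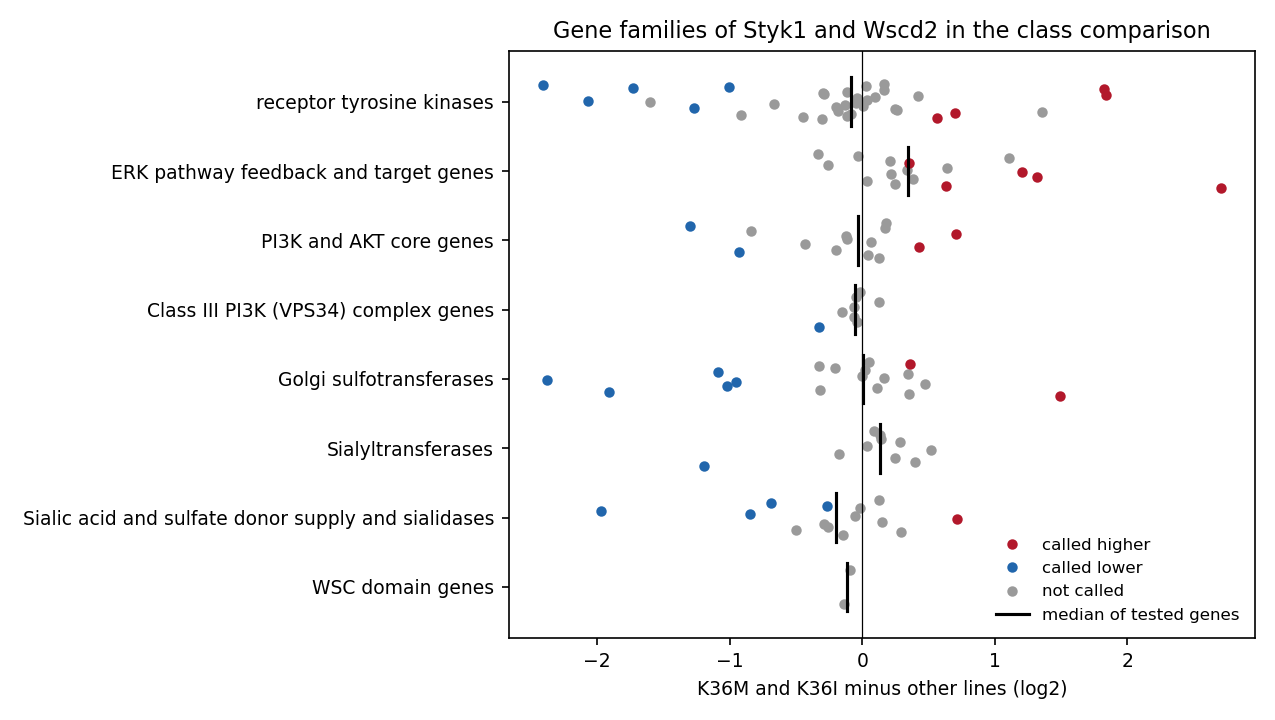
Difference of K36M and K36I lines from the other lines (log2) for each tested gene of the 8 lists, red where called higher, blue where called lower and grey where not called, with the median of tested genes as a black bar. Calls in the ERK list are all higher (5 of 16), whereas receptor tyrosine kinases (4 higher, 5 lower of 35) and Golgi sulfotransferases (2 higher, 5 lower of 18) split.

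Other genes traced the same steps across the 8 libraries. By Pearson's r over the deposited values, the genes most like Styk1 were Col7a1, the collagen of anchoring fibrils (r = 0.999), and Pdk4, a kinase that inhibits pyruvate dehydrogenase (r = 0.997). Arhgef18, a guanine nucleotide exchange factor (0.989), Amot (0.987), the inflammasome sensor gene Nlrp1b (0.987), Slfn4 (0.986), Usb1, which trims U6 RNA (0.985), and Syt12 (0.985) came next. Col7a1 put the 8 libraries in the same order as Styk1, with a Spearman's rank correlation of 1, from 2752 normalised reads in H3.1 K36M to 334 in H3.3 WT. Most opposed to Styk1 were the cartilage matrilin gene Matn3 (r = -0.995), Shroom4 (-0.993), Osgin2 (-0.993) and Klf12 (-0.993).

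Closest to Wscd2 were Bmx, a TEC family tyrosine kinase (r = 0.992), the lipase inhibitor gene G0s2 (0.989), Chn2, which switches off RAC (0.989), and Shroom4 (0.987). Ehbp1 (0.987), the adaptor gene Shf (0.986), the BMP receptor gene Bmpr1a (0.986) and Gas2 (0.986) followed. Bmx had 8.59, 11.9 and 11.8 normalised reads in H3.3 K36M, in H3.3 K36I and in H3.1 K36M, against 705 to 1098 in the others, and like Wscd2 it was highest in H3.3 K36A and had its lowest value of the 5 in H3.1 K36R. Most opposed to Wscd2 were Lsm8, a subunit that binds U6 RNA (r = -0.996), Pstpip2 (-0.995), Plekha2 (-0.992) and the cell cycle kinase gene Wee1 (-0.991).

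Likeness here reflects shape and not size. Bmpr1a and Wscd2 differ greatly in step, -0.42 against -4.97 on the log2 scale, as do Syt12 and Styk1 at 0.43 against 3.82. An r over 8 points is carried by the single step between the sides, and 2.47% of 11930 genes had an absolute r over 0.95 with Styk1 and 2.27% with Wscd2. The libraries also share their normalisation. These values are descriptions.

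**Figure D5:**
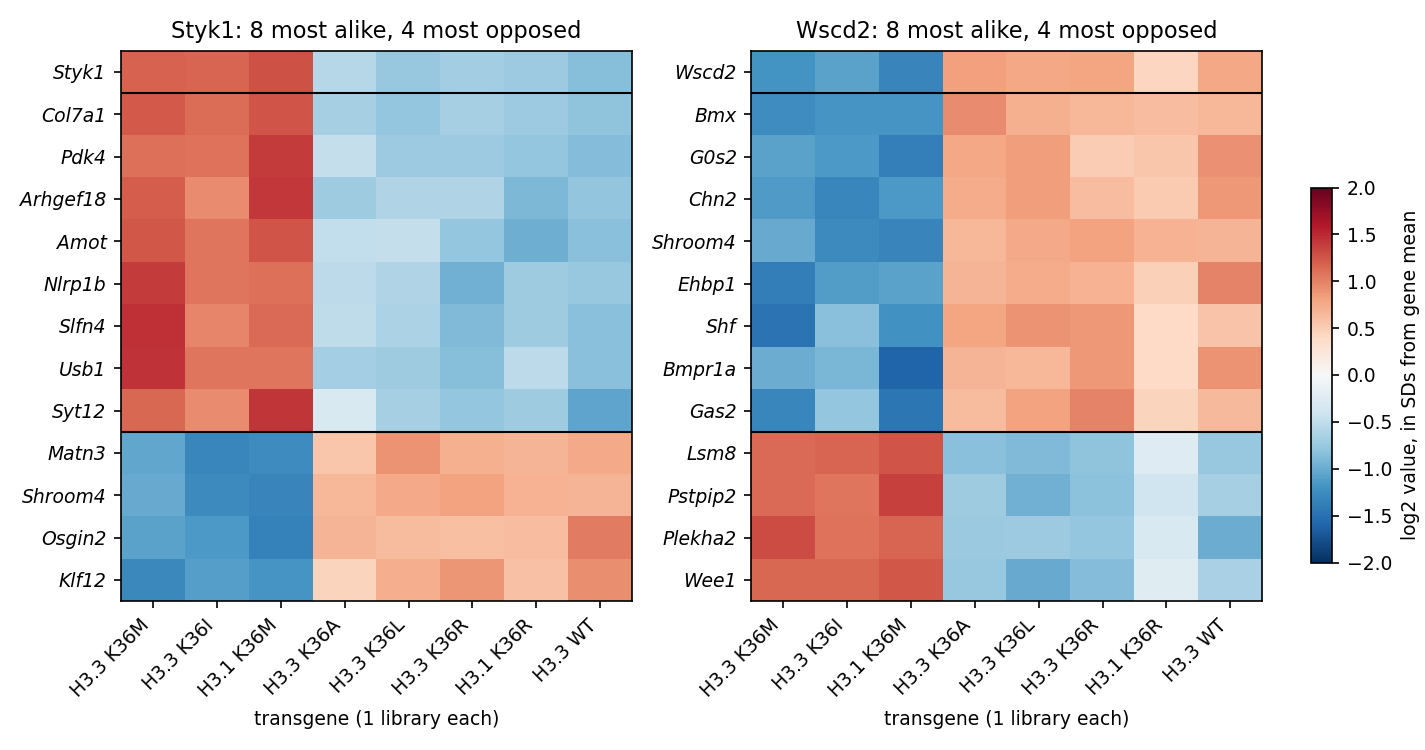
Deposited log2 values in SDs from each gene's mean over the 8 libraries, for Styk1 (left) and Wscd2 (right) in the top row, then the 8 genes most alike and the 4 most opposed by Pearson's r. The step between the K36M and K36I libraries and the others is common to every row.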

How the data were processed

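The series holds RNA-seq of 8 C3H10T1/2 lines. Per the submitters' processing notes the tools were Trimmomatic 0.32, STAR 2.3.0e, featureCounts 1.4.4 and DESeq2, with build mm10. Sources used here do not give their settings, the annotation or the use of strand. The deposited values are log2 values from the authors' variance-stabilising transformation of reads divided by size factors, with no length correction. Inverting the parametric form gave whole reads for 100% of values (within 0.001 reads), hence depths, normalised reads and Poisson intervals. Lengths are unions of exons of GENCODE M21 basic transcripts. Classes follow the substitution (3 against 5 libraries). Tests were two-sided and used limma 3.58.1 (trend on intensity, R 4.3.3) on 14215 genes, leaving out 17061. On simulated counts the class test recovered 81% of 100 genes changed by 1 and 93% of 100 changed by 2 (log2), and called 12 of 14015 unchanged genes. The changed genes all had a mean over 100 normalised reads in the lines outside K36M and K36I. Counts were drawn independently for each gene, without differences between lines that many genes share. The simulation therefore does not give the error rate of the real calls or the recovery of low genes.

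The genes and lists were chosen with earlier results of these data known. The naming rule took Styk1, Wscd2, Wscd1, 5 neighbours a side, 8 alike and 4 opposed genes each, and, in each list, the 4 called genes of largest difference (failing any, 2 uncalled ones), leaving out predicted genes and clones from likeness. Klra1, Klra3, Klra10, Tas2r130 and Tas2r107 come from the neighbour rule. Of the 56 other genes the rule named, 1 is not reported here. Of all 56, 15 have exons overlapping another gene, 12 of them on the opposite strand. Magohb, Pik3r3 and Col7a1 overlap a gene on the same strand (Gm44958, Gm49337 and Mir711). Alternatives were left-out libraries, scaling, scale, filter, histone as a covariate and H3.3 libraries alone.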

Additional observations from a re-analysis of the deposited data

Results flagged for a closer look

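Wscd2 in H3.1 K36R stood apart from the other 4 lines outside K36M and K36I. Its value of 11.30 (2400 normalised reads) lay below 12.16 to 12.30 (4455 to 4908), a gap of 0.863 of the range of the 5 lines. The rule marks about 1 in 20 groups of like replicates. That rate does not apply here, because the genes were chosen on these same values and the lines differ in transgene. The flag is a description. Of 2 groups examined, that of Styk1 gave none. Without H3.1 K36R the difference of Wscd2 between the K36M and K36I lines and the others was -5.16, in place of -4.97. H3.1 K36R had 53199065 reads, against 61840264 to 64093436 in those 4, and the part of depth or histone was not tested.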

How the results depend on the processing

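Leaving out each library in turn, the difference of Styk1 lay between 3.74 and 3.89 and that of Wscd2 between -5.16 and -4.81. Both were larger on the other log scales, at 4.66 and -6.77 with log2 of normalised reads plus 1, and 4.39 and -5.89 with log2 of CPM plus 0.5. The added 0.5 CPM compresses counts as low as those of Wscd2 in the K36M and K36I lines, so the size of the difference depends on the scale. Called genes numbered 1021 (without H3.3 K36M) to 2084 with libraries left out (511 to 989 higher, 510 to 1095 lower), 1211 without H3.3 WT and 1245 without H3.3 K36I. With histone as a covariate there were 2959 (1451 higher, 1508 lower), and without a filter 1540 were higher. Called neighbours numbered 3 to 4 with libraries left out. Of 26 called genes that the naming rule took from neighbours and lists, 17 kept the call in every such fit and 9 lost it in at least 1. Uncalled differences changed sign for Pkd1 without H3.3 K36I (0.0029, range with libraries left out -0.26 to 0.0029), Sart3 without H3.1 K36M (0.039, range -0.14 to 0.039) and Sgsm1 without H3.3 K36M (-0.014) or H3.1 K36R (-0.14, range -0.14 to 0.38) or with H3.3 libraries alone (-0.095). By Spearman in place of Pearson, 1 of 12 genes named for Styk1 and 0 of 12 for Wscd2 stayed at their end; the cause was not tested. Replicates could not be paired because each transgene has 1 library and the labels carry no replicate numbers. Histone was taken into account only as a covariate and in the differences of K36M from K36R within each histone. Depth limits Wscd2 in H3.1 K36M, which had 14 reads.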
